A study of Mus musculus with 6 samples.

Results

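The platelet-derived growth factor (PDGF) genes were examined in heart RNA of mouse embryos at day 11.5 of gestation, sequenced from whole hearts. The 6 members, taken by symbol from a table of 38918 genes, were the 4 ligand genes Pdgfa, Pdgfb, Pdgfc and Pdgfd and the 2 receptor genes Pdgfra and Pdgfrb. The conditional knockout group (3 libraries) had the genotype Nfatc1Cre:Tie2 flox/flox, in which a Cre recombinase from the Nfatc1 locus or promoter, active in the endocardium, removes both floxed alleles of Tek. Tek encodes Tie2, a receptor for angiopoietins. The littermate control group (3 libraries) was Tie2 flox/wild-type, with no Cre named in the labels, so that Cre and the loss of Tek cannot be told apart. All embryos were on a C57/BL6 background, and 18 hearts were used per genotype. Values are FPKM, fragments scaled to transcript length and library size, which can be set side by side between genes of a library.

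PDGFs are secreted dimers that signal through a pair of receptor tyrosine kinases, the alpha receptor encoded by Pdgfra and the beta receptor encoded by Pdgfrb. The A, B and C chains bind the alpha receptor, while the B and D chains bind the beta receptor. The A and B chains are cut inside the cell by furin-like enzymes, whereas the C and D chains are secreted with a CUB domain that proteases outside the cell remove. In growing vessels, PDGF-B is made by endothelial cells, above all by sprouting and arterial ones, and recruits pericytes and smooth muscle cells that carry the beta receptor. In the embryonic heart, both receptors are known in the epicardium and in the mesenchyme that it gives rise to.

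The labels were checked first against Tek, which stood at 3.38, 3.13 and 3.13 FPKM in conditional knockout hearts and at 22.4, 25.7 and 16.6 FPKM in control hearts. The series text says that the RNA of a genotype was pooled and then divided, but Xist, expressed from the inactive X chromosome of females, stood at 32.9, 0.0295 and 0.0324 FPKM in conditional knockout replicates 1 to 3 and at 8.997, 40.7 and 0.0171 FPKM in control replicates 1 to 3. Portions of a single pool would not differ in this way, so what a replicate stands for is unclear, and the p-values cover no more than the spread among these libraries. In all controls 6 genes were listed at 0 that were above 5 FPKM in all conditional knockouts. They were the embryonic globin genes Hba-x and Hbb-y and the mitochondrial genes mt-Nd1, mt-Nd4, mt-Nd5 and mt-Nd6. In conditional knockouts they stood between 3278 FPKM (mt-Nd5, replicate 1) and 23965 FPKM (Hbb-y, replicate 2), and these values enter the sums that follow. Why the controls list them at 0 was not tested. FPKM summed to 531209 to 582261 per conditional knockout library and 481334 to 534409 per control library, and absolute read depth was unknown. Conditional knockout replicate 1 was apart in several genes, with 4047 FPKM of the myosin light chain gene Myl2 against 5679 to 6777 FPKM in the other libraries.

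All 6 members had a mean of at least 1 FPKM and entered the test, limma on log2(FPKM + 1) over 12988 genes with Benjamini-Hochberg adjustment. None of the 6 passed an adjusted p of 0.05, a threshold that 0.177% of all genes tested passed. The genes that passed, 7 higher and 16 lower in conditional knockouts, include Hba-x and Hbb-y, listed at 0 in all controls. In a rescaling added after seeing the data, without genes listed at 0 in 1 group, 1 was higher and 8 were lower. At an unadjusted p under 0.05, 1 member, Pdgfb, passed, against 6.68% of all genes. The libraries of the groups did not overlap for 2 members, Pdgfb and Pdgfd, both higher in conditional knockouts, while 5.23% of all genes were separated in that direction. Log2 fold changes, conditional knockout minus control, were above 0 for 5 members and below 0 for 1 (4 and 2 where each library was rescaled to a common total), with a median of 0.26, against -0.01 over all genes tested. As RNA came from whole hearts, fewer cells of a type and less RNA per cell cannot be told apart.

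**Figure D1:**
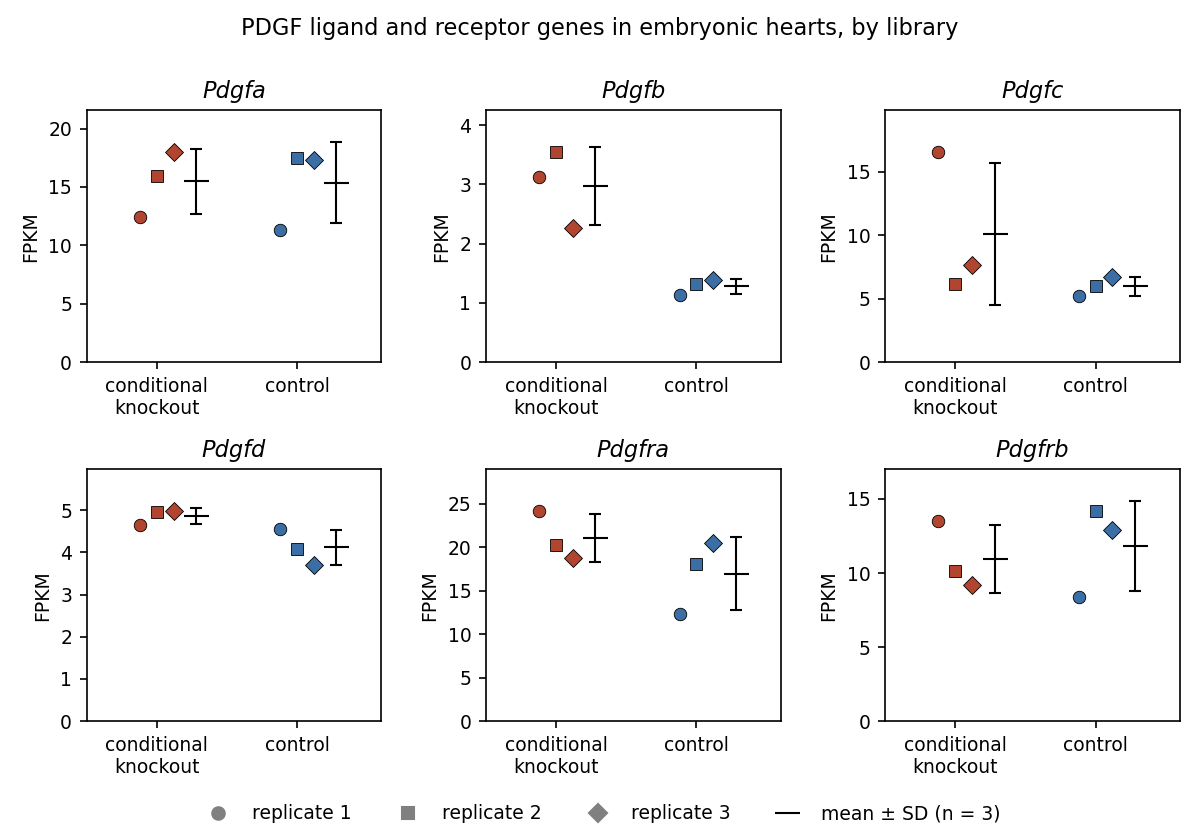
FPKM (vertical axes, from 0) of the 6 PDGF genes in 3 conditional knockout and 3 control libraries; symbols mark the replicate number, and the bars are mean ± SD (n = 3). Pdgfb lies between 2.26 and 3.54 FPKM in conditional knockouts, above all controls at 1.14 to 1.39 FPKM, and Pdgfc is high in 1 library only.

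Pdgfb, which encodes the B chain, had the lowest level of the family in every library and the largest fitted difference between the genotypes. It stood at 3.12, 3.54 and 2.26 FPKM in conditional knockout replicates 1 to 3 and at 1.14, 1.31 and 1.39 FPKM in control replicates 1 to 3. All conditional knockout libraries lay above all controls, and the lowest of them, replicate 3, was still above the highest control. The means were 2.98 ± 0.653 FPKM in conditional knockouts and 1.28 ± 0.129 FPKM in controls (SD, n = 3 each), a ratio of 2.33. On the log2(FPKM + 1) scale, where differences between low levels shrink, the difference was 0.79 ± 0.16 (SE), with a 95% interval of 0.42 to 1.16. The adjusted p in limma was 0.245, so the difference did not pass over all genes. By its unadjusted p of 0.00136, Pdgfb ranked 72nd among the 12988 genes. The gene lies on chromosome 15 from 79995874 to 80014977 on the minus strand (GRCm38), with 3 protein-coding transcripts in GENCODE that the FPKM does not separate. The annotated antisense gene Gm41361 (80012331 to 80042457, plus strand), for which no FPKM was listed, overlaps the span of Pdgfb. As the strand setting is unknown, reads of the shared stretch cannot be assigned to either gene. Without each library in turn, the log2 difference lay between 0.69 and 0.93, and within replicates 2 and 3 it was 0.71.

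Endothelial genes were set beside Pdgfb because endothelium is the known source of the B chain. The summed FPKM of 14 endothelial markers was 288 to 326 in conditional knockouts and 357 to 415 in controls, so the groups did not overlap and went the other way from Pdgfb. None of the 14 passed, 10 lay below 0 and 4 above, and the median log2 fold change was -0.32. At an unadjusted p under 0.05 in limma 9 of the 14 passed, 1 of them higher, against 6.68% of all genes. Eng, the TGF-beta co-receptor endoglin and the highest of them by the mean of all 6 libraries, averaged 47.9 ± 7.03 FPKM in conditional knockouts and 70.96 ± 10.3 FPKM in controls (SD, n = 3 each). The lowest log2 fold change was that of Tie1, the receptor gene related to Tek, at -0.74 (limma adjusted p = 0.0572). The highest was that of Robo4, an endothelial guidance receptor gene, at 0.74 (limma adjusted p = 0.374), with 2.69, 3.39 and 3.30 FPKM in conditional knockouts and 0.952, 1.80 and 1.75 FPKM in controls. The groups did not overlap for Robo4, on the same side as for Pdgfb. Taken as the log2 level of Pdgfb minus the mean log2 level of the endothelial list within a library, the ratio was -1.97, -1.90 and -2.26 in conditional knockouts and -3.05, -3.10 and -2.98 in controls. It was higher by 0.998 in conditional knockouts, with groups that did not overlap, and an exact two-sided permutation test gave p = 0.1, the smallest that 3 against 3 libraries allow (0.2 after Benjamini-Hochberg adjustment over the 2 ratios tested). With the junction gene Cdh5, the adhesion gene Pecam1 or the VEGF receptor gene Kdr alone in place of the list, the difference was 1.496, 1.17 and 1.19, and all 3 of these genes had log2 fold changes below 0. In a comparison added after seeing the data, each of the 14 genes was used alone: the difference ran from 0.054 against Robo4 to 1.53 against Tie1, and the libraries of the groups overlapped against Robo4 and against the junction gene Cldn5 (0.36). Each single-gene difference is the log2 fold change of Pdgfb minus that of the reference gene. This also holds for Cdh5, Pecam1 and Kdr, so none is a separate check of Pdgfb.

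Tip cell and arterial genes moved in both directions. Of 12 listed genes 11 were tested, 1 rose, 1 fell and 9 did not pass, and the median log2 fold change was -0.03. At an unadjusted p under 0.05 in limma 5 of the 11 passed, 4 of them higher, against 6.68% of all genes. Esm1, the endocan gene of sprouting endothelial tips, rose to 2.34 ± 0.0552 FPKM in conditional knockouts, against 0.390 ± 0.04998 FPKM in controls (SD, n = 3 each; log2 fold change 1.27 ± 0.14 (SE), limma adjusted p = 0.0219). Gja4, a gap junction gene of arteries, fell to 4.84 ± 1.08 FPKM in conditional knockouts, against 15.2 ± 2.28 FPKM in controls (SD, n = 3 each; log2 fold change -1.48 ± 0.16 (SE), limma adjusted p = 0.0232). Kcne3, a potassium channel subunit gene of tip cells, averaged 4.84 ± 0.848 FPKM in conditional knockouts and 2.09 ± 0.596 FPKM in controls (SD, n = 3 each) and did not pass (limma adjusted p = 0.234). The call of Esm1 was lost without any 1 library, at adjusted p values of 0.056 to 0.155. That of Gja4 was lost without conditional knockout replicates 2 and 3 and without control replicates 1 and 2, at 0.0987 to 0.158. Platelets also carry PDGF: the summed level of 7 platelet markers was 24.7 to 39.3 FPKM in conditional knockouts and 31.6 to 44.8 FPKM in controls, with Pf4, the platelet factor 4 gene, at 13.3 ± 3.72 and 15.6 ± 2.77 FPKM (SD, n = 3 each). All 6 platelet markers tested had log2 fold changes below 0 (5 of 6 in a rescaling without the genes listed at 0), and none passed.

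**Figure D2:**
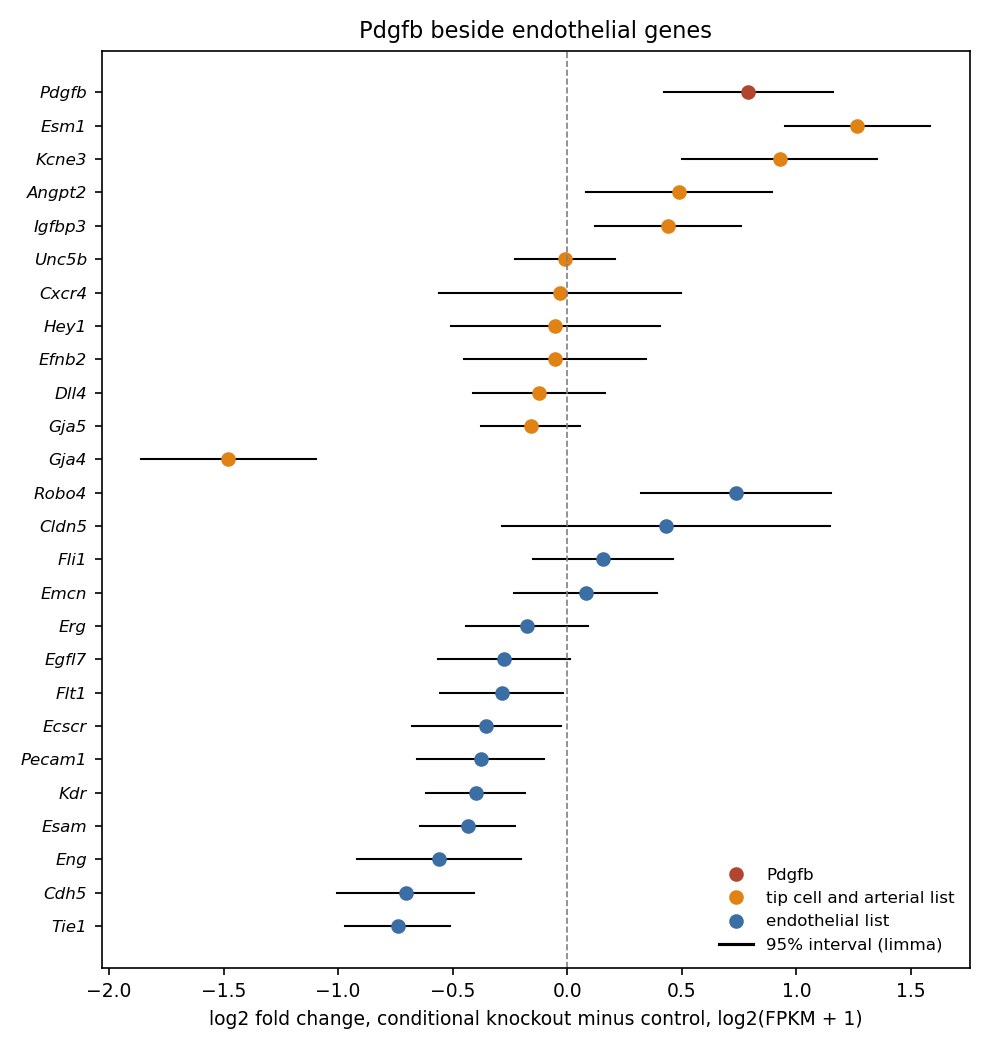
Log2 fold changes (horizontal axis, conditional knockout minus control on log2(FPKM + 1)) of Pdgfb, 11 tip cell and arterial genes and 14 endothelial genes; lines are 95% intervals per gene from limma, not adjusted for the number of genes. Pdgfb lies at 0.79; of the tip cell and arterial genes 4 lie above 0, with Esm1 the highest (1.27), and 7 below, with Gja4 the lowest (-1.48), and of the endothelial genes 4 lie above 0, with Robo4 the highest (0.74), and 10 below.

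Pdgfd encodes the D chain, the other ligand of the beta receptor. It stood at 4.64, 4.96 and 4.97 FPKM in conditional knockouts and at 4.54, 4.09 and 3.71 FPKM in controls. The groups did not overlap, but the lowest conditional knockout library and the highest control, both replicate 1, were close together. The means were 4.86 ± 0.187 FPKM in conditional knockouts and 4.11 ± 0.416 FPKM in controls (SD, n = 3 each), a ratio of 1.18. The log2 difference was 0.20 ± 0.10 (SE; 95% interval -0.05 to 0.44, limma adjusted p = 0.778). Plau, the urokinase gene, whose product cleaves the D chain, averaged 2.21 ± 0.0498 FPKM in conditional knockouts and 1.68 ± 0.159 FPKM in controls (SD, n = 3 each) and did not pass (limma adjusted p = 0.772). Pdgfd lies on chromosome 9 from 6168584 to 6378850 on the plus strand.

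Pdgfa, the gene for the A chain, was the most abundant ligand gene in 5 of the 6 libraries. It stood at 12.5, 16.0 and 18.0 FPKM in conditional knockout replicates 1 to 3 and at 11.3, 17.4 and 17.3 FPKM in control replicates 1 to 3. Replicate 1 was the lowest library of each group, and the groups overlapped over nearly their whole range. The means were 15.5 ± 2.79 FPKM in conditional knockouts and 15.4 ± 3.49 FPKM in controls (SD, n = 3 each). The log2 difference was 0.02 ± 0.20 (SE), with a 95% interval of -0.44 to 0.48, which spans folds of 0.738 to 1.39. Pdgfa lies on chromosome 5 from 138976014 to 138997370 on the minus strand. Its 4 protein-coding transcripts are not separated in the FPKM, so A chain forms with and without the retention motif, which holds the protein at the cell surface, are not told apart.

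Pdgfc, the gene for the C chain, stood apart in a single library. It had 16.6, 6.19 and 7.65 FPKM in conditional knockout replicates 1 to 3 and 5.22, 5.99 and 6.70 FPKM in control replicates 1 to 3. Conditional knockout replicate 1 lay 2.16 times above the highest other library, and conditional knockout replicate 2 lay within the controls. The means were 10.1 ± 5.61 FPKM in conditional knockouts and 5.97 ± 0.740 FPKM in controls (SD, n = 3 each), with a log2 difference of 0.57 ± 0.31 (SE; 95% interval -0.15 to 1.29, limma adjusted p = 0.789). Without conditional knockout replicate 1 the difference was 0.18, and within replicates 2 and 3 it was 0.10. Of 45 mural, mesenchyme, endothelial and epicardial markers with a mean of at least 1 FPKM, 33 were not above the highest other library in this library, among them 10 of 13 mural and 12 of 14 endothelial genes, and 5 were over 1.5 times above it. These were the pericyte genes Rgs5, Notch3 and Kcnj8, the tendon and valve gene Scx and the junction gene Cldn5, at 1.83, 1.70, 1.59, 1.67 and 2.12 times the highest other library. The retinoid binding gene Crabp2, also chosen after its values were seen, stood at 21.6 FPKM against 4.01 to 6.89 FPKM. Their part in the Pdgfc value was not tested.

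Pdgfc lies on chromosome 3 from 81036416 to 81214040 on the plus strand, and the annotated antisense gene Gm16000 (81037408 to 81040437, minus strand) overlaps the end of its first exon. Gm16000, which was singled out after its values were seen, stood at 1.48, 1.16 and 1.24 FPKM in conditional knockouts and at 0.236, 0.478 and 0.347 FPKM in controls. For Gm16000 all conditional knockout libraries lay above all controls, also replicate 2, in which Pdgfc lay within the range of the controls. Its mean over all libraries was below the minimum of 1 FPKM, and in the fit with no filter its log2 difference was 0.76 ± 0.10 (SE, limma adjusted p = 0.18). No source used here gives the strand setting, so reads of the overlapping stretch cannot be assigned to either gene.

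The ligand genes summed to 36.8, 30.7 and 32.8 FPKM in conditional knockouts and to 22.2, 28.8 and 29.1 FPKM in controls, and the sums of the groups did not overlap. The nearest were conditional knockout replicate 2 and control replicate 3. All FPKM of those libraries summed to 582261 and 481334. Relative to these totals, the ligand sum of conditional knockout replicate 2 lay below that of control replicate 3. On that scale the groups were thus not separated. The total of conditional knockout replicate 2 includes the embryonic globin and mitochondrial genes named above, which add nothing to the control totals. Pdgfb made up 8.48%, 11.6% and 6.89% of the ligand sum in conditional knockouts and 5.12%, 4.55% and 4.77% in controls. Its share was thus above that of every control in all conditional knockout libraries. The share of Pdgfa was 33.9%, 52.1% and 54.7% in conditional knockouts and 50.97%, 60.5% and 59.5% in controls. In conditional knockout replicate 1, Pdgfc held 45.0% of the sum, and in the other libraries 20.2% to 23.5%. These shares and the ratios between members are descriptions, with no test.

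**Figure D3:**
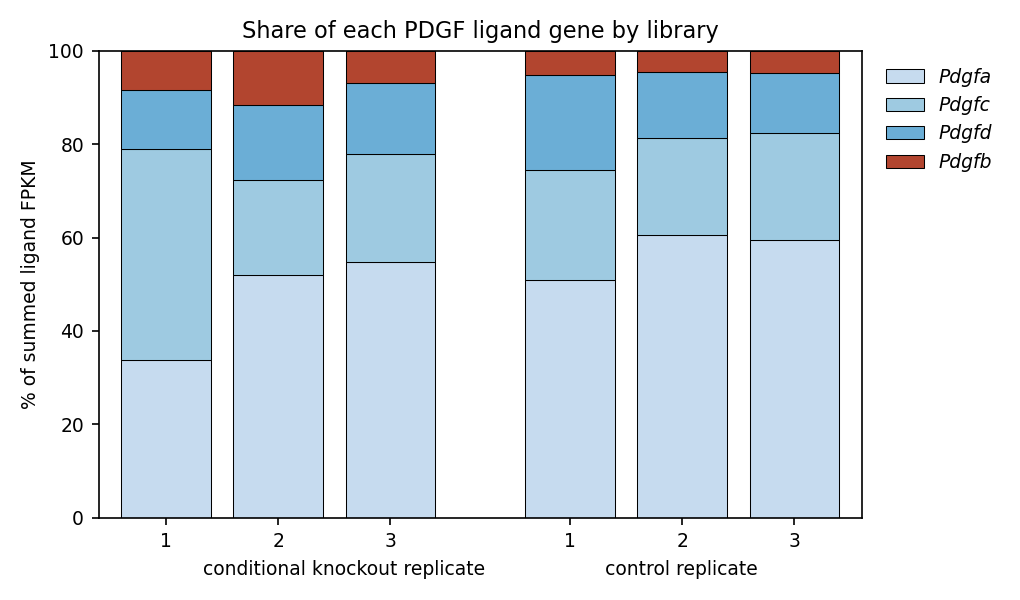
Share of each ligand gene in the summed FPKM of the 4 PDGF ligand genes (vertical axis, percent), with 1 bar per library. Pdgfb takes 6.89% to 11.6% in conditional knockouts and 4.55% to 5.12% in controls, and Pdgfc takes 45.0% in conditional knockout replicate 1.

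Pdgfra, the alpha receptor gene and the most abundant member in every library, stood at 24.1, 20.3 and 18.7 FPKM in conditional knockout replicates 1 to 3 and at 12.3, 18.0 and 20.5 FPKM in control replicates 1 to 3. The groups overlapped, with control replicate 1 the lowest library and conditional knockout replicate 1 the highest. The means were 21.03 ± 2.78 FPKM in conditional knockouts and 17.0 ± 4.18 FPKM in controls (SD, n = 3 each), and the log2 difference was 0.32 ± 0.19 (SE; 95% interval -0.13 to 0.76, limma adjusted p = 0.807). Within replicates 2 and 3 the difference was 0.02. Pdgfra lies on chromosome 5 from 75152292 to 75198215 on the plus strand.

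Pdgfrb, the beta receptor gene, stood at 13.5, 10.1 and 9.18 FPKM in conditional knockout replicates 1 to 3 and at 8.42, 14.2 and 12.9 FPKM in control replicates 1 to 3. The replicate 1 libraries lay opposite to the others, with the conditional knockout above the control in replicate 1 and both remaining conditional knockouts below both remaining controls. The means were 10.9 ± 2.29 FPKM in conditional knockouts and 11.8 ± 3.02 FPKM in controls (SD, n = 3 each). The log2 difference was -0.09 ± 0.21 (SE; 95% interval -0.58 to 0.40, limma adjusted p = 0.953). Within replicates 2 and 3 it was -0.45 ± 0.09 (SE, unadjusted p = 0.00449 and adjusted p = 0.306 in limma). Pdgfrb lies on chromosome 18 from 61045150 to 61085061 on the plus strand and overlaps no other annotated gene. Every other member shares part of its span with an annotated gene of the opposite strand.

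The receptors were also compared with each other within a library. Pdgfra was 1.78, 2.003 and 2.04 times as high as Pdgfrb in conditional knockouts and 1.47, 1.27 and 1.59 times as high in controls. Each conditional knockout library lay above each control, although both receptor genes overlapped between the groups when taken alone. Pdgfb was 0.231, 0.350 and 0.246 times the level of Pdgfrb in conditional knockouts and 0.135, 0.0926 and 0.108 times in controls, again without overlap. The ratios of Pdgfa to Pdgfra, Pdgfc to Pdgfra and Pdgfd to Pdgfrb overlapped between the groups.

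**Figure D4:**
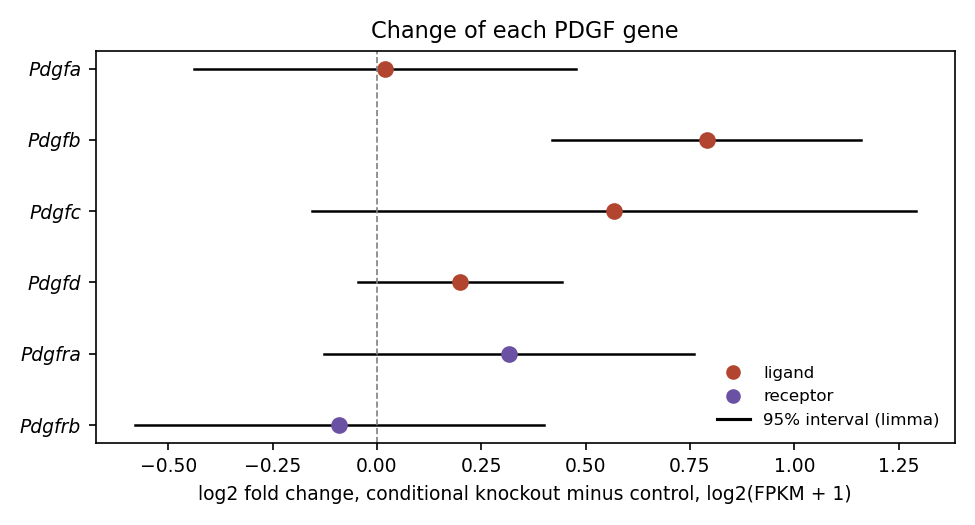
Log2 fold change of each PDGF gene (horizontal axis, conditional knockout minus control on log2(FPKM + 1)), with the 95% interval per gene from limma, not adjusted for the number of genes. The interval of Pdgfb runs from 0.42 to 1.16, and those of the other 5 genes include 0.

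In conditional knockouts, the order of mean levels was Pdgfra, Pdgfa, Pdgfrb, Pdgfc, Pdgfd and Pdgfb, and controls had the same order. The ranges of Pdgfa and Pdgfrb overlapped in both groups, those of Pdgfrb and Pdgfc overlapped in conditional knockouts, and those of Pdgfra and Pdgfa overlapped in controls, where Pdgfra was still the higher in all 3 libraries. Pdgfd lay above Pdgfb in all 6 libraries. The level of Pdgfb was 0.672, 0.714 and 0.455 times that of Pdgfd in conditional knockouts and 0.251, 0.321 and 0.374 times in controls.

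The cells that carry PDGF receptors were followed through their markers. Of 15 mural cell genes, which mark pericytes and smooth muscle, 13 were tested, none passed, 8 lay below 0 and 5 above, and the median log2 fold change was -0.20. In limma, 4 of the 13 had an unadjusted p under 0.05, 1 of them higher, against 6.68% of all genes. Their summed level was 1095 to 1370 FPKM in conditional knockouts and 1329 to 1855 FPKM in controls, and Higd1b, a pericyte gene, was listed at 0 in all 6 libraries. Much of that sum came from Acta2, Des and Tagln, which the embryonic heart muscle also expresses. The members with the largest differences were the smooth muscle myosin gene Myh11, with 2.61 ± 0.905 FPKM in conditional knockouts and 1.16 ± 0.538 FPKM in controls, the aminopeptidase gene Anpep, with 3.21 ± 0.605 and 5.67 ± 1.03 FPKM, and the calponin gene Cnn1, with 83.4 ± 14.2 and 116 ± 5.28 FPKM (SD, n = 3 each). None of them passed in limma (adjusted p = 0.708, 0.374 and 0.559). The log2 level of Pdgfrb minus the mean of the mural list was -0.02, -0.51 and -0.39 in conditional knockouts and -0.70, -0.07 and -0.16 in controls, with a two-sided exact permutation p = 1.0. That mean takes in all 15 genes, also Higd1b and Vtn, which were not tested.

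Of 9 epicardial genes 8 were tested and none passed (median log2 fold change -0.01), and the sums were 174 to 186 FPKM in conditional knockouts and 173 to 191 FPKM in controls. Upk3b, a uroplakin gene of mesothelium, averaged 52.4 ± 4.05 FPKM in conditional knockouts and 60.1 ± 7.22 FPKM in controls (SD, n = 3 each). None of 10 mesenchyme genes passed, 7 lay above 0 and 3 below, and the median was 0.12. Col3a1, a fibrillar collagen gene with the highest mean of the list, averaged 115 ± 13.8 FPKM in conditional knockouts and 131 ± 24.2 FPKM in controls, and Prrx1, a mesenchymal homeobox gene with the largest difference, averaged 8.49 ± 2.14 and 5.69 ± 1.52 FPKM (SD, n = 3 each; limma adjusted p = 0.742 for Prrx1). The log2 level of Pdgfra minus the mean of the mesenchyme list was -0.39, -0.41 and -0.63249 in conditional knockouts and -0.73, -0.72 and -0.63409 in controls. The groups did not overlap, but conditional knockout replicate 3 and control replicate 3 were nearly equal.

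Genes that act with the ligands and receptors passed in no case. Of 10 genes for ligand processing and binding 9 were tested, with a median log2 fold change of 0.01, and the largest difference was that of Furin, whose protease cuts the A and B chains, at 26.4 ± 2.02 FPKM in conditional knockouts and 32.7 ± 2.83 FPKM in controls (SD, n = 3 each; limma adjusted p = 0.729). All 27 signalling genes downstream of the receptors were tested, 9 above and 18 below 0, with a median of -0.08. Among them Mapk3, which encodes the kinase ERK1, averaged 42.4 ± 2.72 FPKM in conditional knockouts and 54.9 ± 4.65 FPKM in controls (SD, n = 3 each; limma adjusted p = 0.578). Rasa1, the Ras GTPase activator gene, averaged 43.2 ± 10.2 FPKM in conditional knockouts and 33.9 ± 6.75 FPKM in controls (SD, n = 3 each; limma adjusted p = 0.808). The 10 phosphatase, ubiquitin ligase and feedback genes had a median of -0.02, with the Sprouty gene Spry1 at 0.22 ± 0.11 and the ERK phosphatase gene Dusp6 at -0.21 ± 0.13 (log2 fold change, SE).

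The closest relatives of the PDGF receptors are the other class III receptor tyrosine kinases. Of these genes and their ligands, 7 in all, 5 were tested and none passed, with a median log2 fold change of 0.17. Csf1r, the receptor gene of macrophages, averaged 3.4005 ± 0.258 FPKM in conditional knockouts and 2.61 ± 0.302 FPKM in controls, and Kit, the stem cell factor receptor gene, 2.70 ± 0.674 and 3.34 ± 0.255 FPKM (SD, n = 3 each; limma adjusted p = 0.742 and 0.808). The summed level of 6 macrophage markers was 16.99 to 18.8 FPKM in conditional knockouts and 11.4 to 15.8 FPKM in controls, and the part of macrophages in the Csf1r value was not tested. C1qb, a complement gene of macrophages, averaged 6.05 ± 0.575 FPKM in conditional knockouts and 4.91 ± 0.458 FPKM in controls (SD, n = 3 each).

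Patterns over the 6 libraries were compared by Pearson's r on log2(FPKM + 1) with up to 8787 genes whose mean was at least 5 FPKM, leaving out predicted, clone-named and sex-linked genes. The libraries share 2 genotypes, so a difference between the groups raises r by itself. So does a difference shared by the replicate 1 libraries: Csf1, named below for Pdgfa, stood there at 4.43 and 3.82 FPKM, against 6.29 to 7.78 FPKM elsewhere. The genes named are the highest of all candidates over only 6 libraries, so a high r alone does not show a relation. Most alike to Pdgfb were Zfp825 (r = 0.975), Naa16 (0.970) and Ankrd32 (0.968), of which Zfp825 stood at 6.86 to 7.49 FPKM in conditional knockouts and 4.59 to 4.94 FPKM in controls. For Pdgfd they were S100a16, Ptma and Supt16 (r = 0.985, 0.983 and 0.980), and for Pdgfa they were Csf1, Nav2 and Ncor1 (r = 0.995, 0.995 and 0.994). Those of Pdgfc were Unc5c (0.996), a netrin receptor gene, Fzd7 (0.990), a Wnt receptor gene, and S1pr3 (0.990), a sphingosine 1-phosphate receptor gene, and all were highest in conditional knockout replicate 1. For Pdgfra the nearest genes were Pabpn1, Tada1 and Tial1 (r = 0.995, 0.991 and 0.986), and for Pdgfrb Mum1, Fbrs and Syvn1 (r = 0.992, 0.988 and 0.982).

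Levels that reflect the makeup of the libraries differed too. The Y-linked gene Eif2s3y, which depends on the sex of the embryos, stood at 34.1, 52.8 and 55.6 FPKM in conditional knockouts and at 17.7, 20.01 and 41.0 FPKM in controls. With the mean of 4 Y-linked genes as a covariate, the log2 difference of Pdgfb was 0.76 ± 0.24 (SE), against 0.79 ± 0.16 without it. Its unadjusted p in limma was then 0.0165, against 0.00136, and its adjusted p was 0.99990. The cardiomyocyte gene Actc1 averaged 5182 ± 796 FPKM in conditional knockouts and 6191 ± 848 FPKM in controls (SD, n = 3 each), and none of 7 cardiomyocyte genes passed. The liver gene Afp stood at 2.204, 123 and 0.249 FPKM in conditional knockouts and at 51.5, 11.2 and 15.7 FPKM in controls, levels that did not go with the genotype.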

How the data were processed

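RNA sequencing of whole hearts gave 1 deposited table of FPKM values, with a column per library. The submitters' processing notes name TopHat2 2.0.9, Cufflinks 2.2.1, Cuffdiff, HTSeq and the build mm10. No source used here gives their roles, the strand setting or the annotation.

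The authors' FPKM values were analysed as log2(FPKM + 1) for genes whose mean reached 1 FPKM, with limma 3.58.1 in R 4.3.3 (intensity trend, no block, Benjamini-Hochberg threshold 0.05), checked on simulated data. Exact permutation tests used scipy 1.17.1. Positions come from GENCODE release M21 (GRCm38), in which 37607 of 38918 identifiers were found.

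Whole-read steps were sought in 1582 genes above 0 and under 0.3 FPKM in every library. Ratios piled up at 1 value for 6.07% to 10.4% of them between libraries of replicates 2 and 3, for 1.07% to 1.33% where 1 library was a replicate 1, and for 2.4% between both replicate 1 libraries. Replicates 2 and 3 were also analysed alone. Whether both replicate 1 libraries share a batch is unknown, as is depth.

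Members and lists were chosen with earlier results of these data known. By rule, the text names from pathway lists the genes past the threshold or else the 2 largest differences, from marker lists those past it or else the highest mean, the 3 largest differences among tip cell and arterial and among mural genes, and the 3 genes most alike to each member. Cdh5, Pecam1 and Kdr served as single references for Pdgfb. Tie1, Robo4, Prrx1, Gm16000, Myl2, Crabp2 and the genes high in conditional knockout replicate 1 were chosen after their values were seen, and Tek, Xist and Eif2s3y check the samples.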

Additional observations from a re-analysis of the deposited data

How the results depend on the processing

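None of the 6 members passed the adjusted threshold under any of the 19 alternatives, of which a minimum mean of 5 FPKM gave no value for Pdgfb and Pdgfd. Pdgfb, Pdgfc, Pdgfd and Pdgfra kept their direction in all of theirs, Pdgfb with log2 differences of 0.69 to 1.14 and adjusted p values of 0.165 to 0.99990. Pdgfa turned below 0 when each library was rescaled to a common total (-0.11), with the Y-linked covariate (-0.26) and in replicates 2 and 3 alone (-0.035), and lay between -0.17 and 0.16 without each library in turn. Rescaling moved the median of all genes to -0.13, and a rescaling added after seeing the data, without the genes listed at 0 in 1 group, put Pdgfa at 0.08. Under the 4 other scalings the list medians of the endothelial, mural and platelet genes stayed below 0 and that of the 6 members above 0, while those of the tip cell and arterial, epicardial, mesenchyme, ligand processing and receptor attenuation lists changed sign in at least 1 of them. Pdgfrb lay between -0.30 and 0.046 without each library in turn. For the log2 ratio of Pdgfrb to the mural list, the difference between the groups was -0.00104, and it was 0.0144 with a pseudocount of 0.1. The causes were not tested. The count of genes called, 23 of 12988, was 14 with no filter, 7 with the Y-linked covariate, 9 in the added rescaling and 10 to 18 without each library. With the replicate number as a block 17 genes were called, and Pdgfb had an adjusted p of 0.271, Esm1 of 0.0921 and Gja4 of 0.0233. Deviations of same-numbered libraries correlated at 0.19, 0.03 and 0.23 over all genes tested, so the numbers were not taken as pairs, although the values were 0.27, 0.11 and 0.44 over genes above 0 in every library and 5 of 6 libraries correlated best with their own number. FPKM without counts gives no interval for the depth behind a value.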
